A study of Mus musculus with 121 samples.

Results

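Substantia nigra (SN) and prefrontal cortex (PFC) of young wild-type (WT) mice were compared over all expressed genes. The members were chosen by label, as Nestin-Cre mice of WT genotype at 2 months, which gave 13 of the 121 libraries of the series. Of these, 6 libraries came from SN and 7 from PFC, and mice are named by the letter N of their labels and their number. Mice N4329, N4394, N4529, N4609 and N4612 gave both regions, mouse N4545 gave SN alone, and mice N4326 and N4396 gave PFC alone. Another PFC library labelled WT, from mouse N4575, was left out because the other libraries of that mouse are labelled HOM.

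The series measured RNA in SN, PFC and striatum of mice with a conditional allele, cKU, that raises Gdnf from its own gene once Cre has acted, and of their WT littermates. The question of the region comparison was which genes set the dopamine neurons' own territory apart from a cortical target. RNA was extracted from pieces cut out of 2-mm brain slices, and 200 ng per sample went into stranded poly(A) libraries read as 75-bp single ends. The young mice were males of genotype wt/wt from the GDNF cKU x Nestin-Cre cross on a 129Ola/ICR/C57bl6 mixed background, 2 months old and without treatment. In that cross Cre is driven by Nestin, a gene of neural progenitors, so Cre would reach neurons and glia of the whole brain. Mice of the same cross with 1 cKU allele (wt/cKU, HET, 6 mice with both regions) or 2 (cKU/cKU, HOM, 4 mice) served as further sets, as did 7 wt/wt mice of the GDNF cKU +AAV-Cre set. The latter were 5 to 7 months old and had received AAV-Cre in the striatum on both sides at 3 to 5 months, so age, injection and source of Cre cannot be told apart between the 2 sets of WT mice. Total counts per library ran from 15161021 to 25882810 in PFC (median 21031680) and from 13769516 to 22399651 in SN (median 15487994).

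Dopamine neurons of the midbrain make dopamine from tyrosine, load it into vesicles and take it back up through a transporter at their terminals. Their cell bodies lie in SN among GABA neurons, and their axons reach striatum and cortex. The PFC is a layered cortex whose main neurons release glutamate, so the regions differ in neuron types, in the share of white matter and in neighbouring structures. In tissue pieces, fewer cells of a type and less RNA per cell cannot be told apart.

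The labels were checked against the 3 marker genes. Th (Gene ID 21823, mm10 chr7:142892776-142899966), the rate-limiting enzyme of dopamine synthesis, had 534 to 764 cpm in SN (median 605) and 2.31 to 35.8 cpm in PFC (median 10.2). Every SN library lay above every PFC library, and the lowest and highest PFC values came from mice N4394 and N4329. The paired log2 fold change of SN over PFC was 5.69 (SE 0.51), with adjusted p = 3.03e-05 by edgeR's quasi-likelihood test with Benjamini-Hochberg correction, and Th was higher in SN in 5 of 5 mice. Slc6a3 (Gene ID 13162, chr13:73536747-73578672), the dopamine transporter, had 948 to 1512 cpm in SN (median 1068) and 0.454 to 2.39 cpm in PFC (median 0.948). The SN libraries were again all above those of PFC, with a log2 fold change of 9.84 (SE 0.31), adjusted p = 8.57e-07 in the same edgeR quasi-likelihood test with Benjamini-Hochberg correction, higher in 5 of 5 mice. Neurod6 (Gene ID 11922, chr6:55677819-55681263), a transcription factor of cortical excitatory neurons, had 75.6 to 135 cpm in PFC (median 99.9) and 1.39 to 18.7 cpm in SN (median 2.89). All SN libraries lay below all PFC libraries, so no library sat in the range of the other region for any of the 3 genes. The log2 fold change was -4.09 (SE 0.59), or -5.56 without mice N4329 and N4394, with adjusted p = 3.82e-04 (edgeR quasi-likelihood test, Benjamini-Hochberg), lower in SN in 5 of 5 mice. Levels in cpm (counts scaled to equal library size by TMM) are shown for all 13 libraries, and p-values refer to the 5 mice with both regions, with mouse as a block, over all genes tested.

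**Figure D1:**
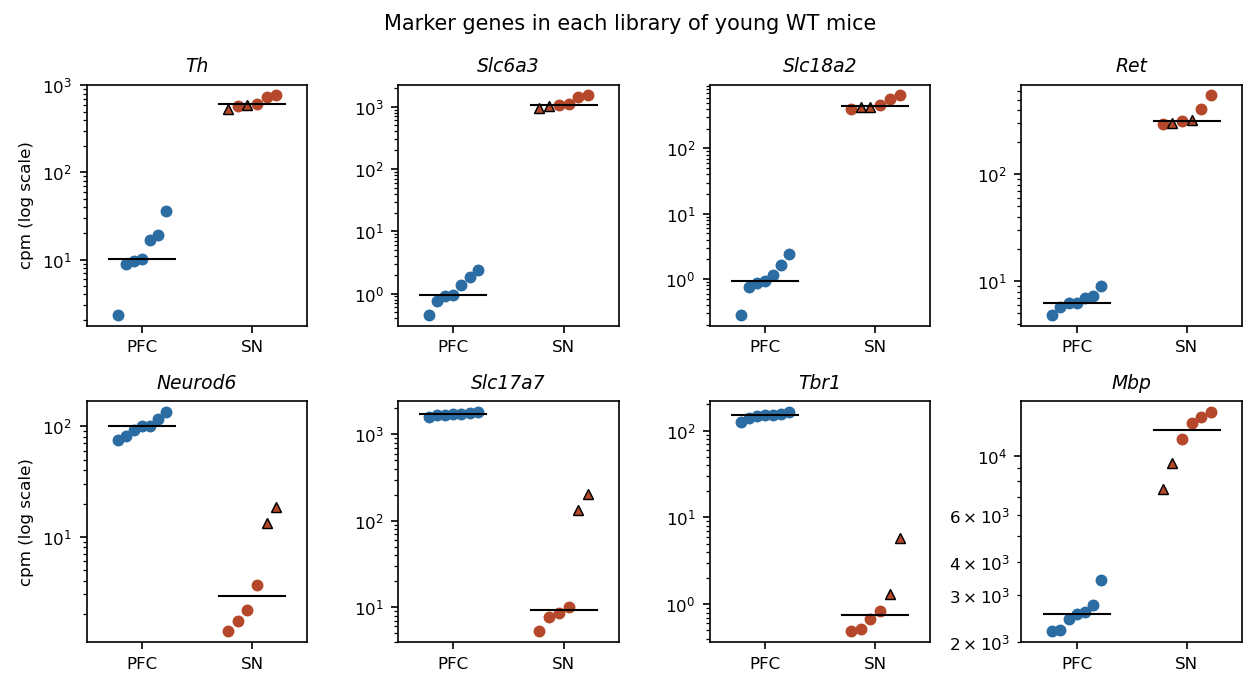
Level of 8 genes in each of the 7 PFC and 6 SN libraries, in cpm on log axes with a scale of its own for each gene, points ordered by value and bars at the group median; triangles are the SN libraries of mice N4329 and N4394. Slc17a7 reached 204 and 133 cpm in those libraries and 5.24 to 10.2 in the other 4 SN libraries.

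The SN libraries of mice N4329 and N4394 stood apart from the other 4 SN libraries. Slc17a7, the vesicular glutamate transporter of cortical neurons, had 204 cpm in mouse N4329, 133 in mouse N4394 and 5.24 to 10.2 in the others. Tbr1, a T-box factor of deep-layer cortical neurons, had 1.32 and 5.77 cpm against 0.486 to 0.835, and Neurod6 had 13.3 and 18.7 against 1.39 to 3.62. The summed level of 18 genes of telencephalic and cortical excitatory neurons was 929.6 cpm in SN of mouse N4329 and 1276 in that of mouse N4394. The other SN libraries had sums of 389, 360.4, 474 and 431 cpm, and PFC libraries had 8261 or more. Camk2a held the largest part of the sum in both regions, and none of the 18 genes was at 0 throughout SN. In the same SN libraries the summed level of 12 genes of meninges and fibroblasts was 8609 and 7328 cpm, against 1091 to 2308 in the others. Ptgds, a prostaglandin D synthase of the meninges, was the most abundant of them with 7056 and 6036 cpm against 880.0 to 2004. Acta2, smooth muscle actin, had 315 and 154 cpm against 6.85 to 25.4. Mbp (myelin basic protein) had 9405 and 7475 cpm against 11579 to 14584. Gad1, the GABA-synthesising enzyme, had 302 and 285 against 539 to 703, so both genes were lowest in these libraries. Slc6a3 was lowest in them too, at 1021 and 948 cpm against 1044 to 1512, and so was the sum of 13 genes of dopamine synthesis, storage and uptake, at 4302 and 4046 against 4399.6 to 5652. Th overlapped, with 595 and 534 cpm against 571 to 764. The part of these marker levels in the region differences was not tested. Log2 fold changes printed here that moved by more than 1.5-fold are given with and without mice N4329 and N4394, a choice made after seeing the data.

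Among PFC libraries, the genes of olfactory bulb neurons varied between mice. Their summed level over 12 genes ran from 338 cpm in mouse N4394 to 831 in mouse N4329. Doc2g, a synaptic protein gene of the bulb, ran from 3.67 to 71.7 cpm, and Cdhr1, a cadherin of mitral cells and photoreceptors, from 9.57 to 134. Eomes, a transcription factor of glutamatergic bulb neurons, ran from 0.363 to 17.0 cpm. Th in PFC had its lowest and highest values in the same mice, at 2.31 and 35.8 cpm. Meis2 held the largest part of the PFC sum, and none of the 12 genes was at 0 throughout PFC. Their part in the PFC level of Th was not tested.

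Of 14564 genes tested, 11115 (76.3%) were called at an adjusted p under 0.1. The genes called higher in SN numbered 5697 (39.1%) and those called lower 5418 (37.2%). With mice N4329 and N4394 left out, 5136 were called higher and 5109 lower among 14224 tested. Most differences were small: 7752 called genes differed by less than 2-fold, and the median absolute log2 fold change over all genes tested was 0.518. At least 2-fold differences were called for 1628 genes higher in SN (11.2%) and 1735 lower (11.9%). At the far ends, 85 genes were at least 16-fold higher and 71 at least 16-fold lower in SN. For 7271 genes (49.9%) the 6 SN libraries did not overlap the 7 PFC libraries, 3599 above and 3672 below. The median log2 fold change of all genes tested was 0.03, the value against which list medians are read here. Counts of list members called are to be read against the shares of 39.1% higher and 37.2% lower. Those of members without overlap are to be read against 49.9%. Among the genes named below with a call, the libraries of the 2 regions overlapped for Adarb2, Barhl2, Calb1, Cd163, Cd74, Col3a1, Csf1r, Cspg4, Doc2g, Fcrls, Folr1, Fos, Gal, Gpnmb, H2-Aa, Hcn2, Hdc, Htr5b, Ido1, Lum, Myh11, Nfasc, Ngfr, Nr4a2, Nts, Pdgfrb, Ptgds, Rsph1, Scn1a, Slc32a1, Slc40a1, Tagln, Trh, Ttr and Vps13c. The direction held in 5 of 5 mice for these except Col3a1, Gpnmb, Ido1, Nfasc, Ptgds, Scn1a and Trh (4 of 5) and Cd74, H2-Aa, Myh11, Nr4a2, Pdgfrb, Slc32a1 and Tagln (3 of 5).

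**Figure D2:**
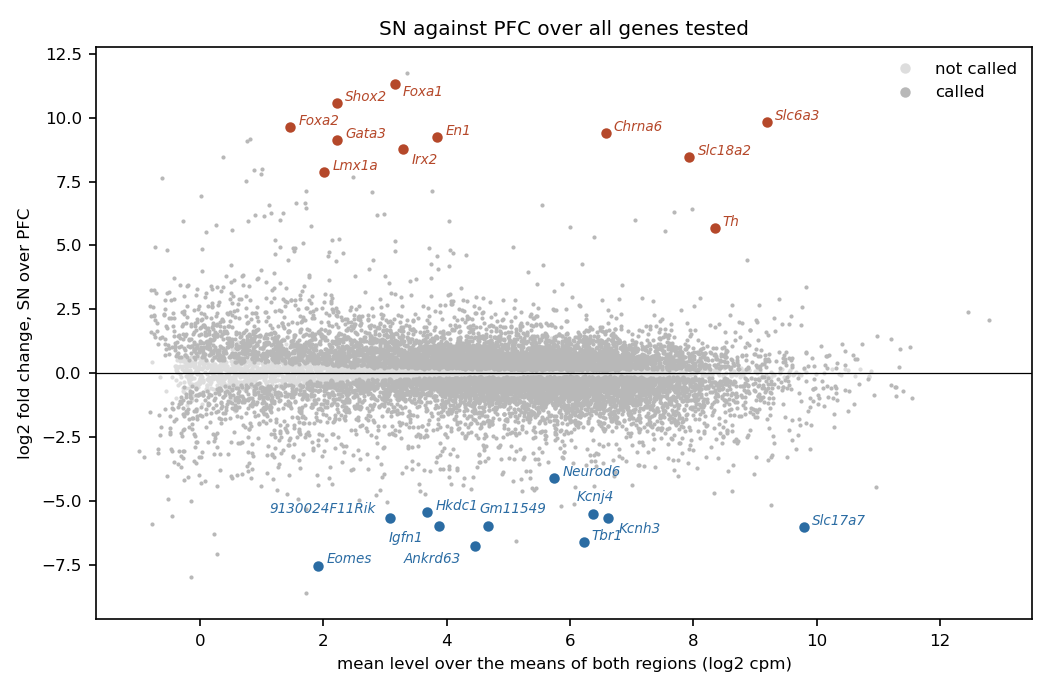
Log2 fold change of SN over PFC (y axis) against the mean level of both regions in log2 cpm (x axis) for the 14564 genes tested; dark grey points were called, light grey were not, and 22 genes are named. Slc6a3 lies at 9.84 and Slc17a7 at -6.02.

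Of the genes reported here, the 10 highest among those called, with at least 5 cpm on average in the region with more and no overlap of libraries, were Foxa1, Shox2, Slc6a3, Foxa2, Chrna6, En1, Gata3, Irx2, Slc18a2 and Lmx1a. Except for Slc6a3, Chrna6 and Slc18a2, they encode transcription factors that pattern the midbrain, hindbrain and diencephalon. Foxa1, a forkhead factor of dopamine neurons, had 12.7 to 22.4 cpm (median 17.6) in SN and no count in PFC. Against a floor of 3 counts over the 7 PFC libraries, it was at least 801-fold higher in SN. Its relative Foxa2 had 3.83 to 6.80 cpm (median 5.56) in SN and no PFC count, at least 255-fold above the floor. Shox2, a homeobox gene of the thalamus and midbrain, had 1.66 to 27.5 cpm (median 7.57) in SN and no PFC count, at least 477-fold higher. Mouse N4612 was high for Shox2, at 27.5 cpm against 1.66 to 9.54 in the other SN libraries, and without that library the bound was 250.3-fold. Gata3 (a GATA factor of midbrain GABA and serotonin neurons) had 1000 counts in SN and 1 in PFC, a scaled ratio of 1332 with an exact 95% counting interval of 238 to 52656. The PFC count of Gata3 lay in mouse N4394, and its log2 fold change was 9.12 (SE 0.44), or 10.83 without mice N4329 and N4394. Lmx1a, a LIM factor that specifies midbrain dopamine neurons, had 808 counts in SN and 3 in PFC, a scaled ratio of 359 (exact 95% interval 122 to 1743). Of the 3 PFC counts of Lmx1a, 2 lay in mouse N4329, so the ratio rests largely on that library. Floors and intervals cover counting error only, and medians of gene lists were the same with genes of no count set at their floor. En1 (engrailed 1), which dopamine neurons need for survival, had 20.8 to 35.7 cpm in SN (median 28.7) and 0 to 0.160 cpm in PFC (median 0). Irx2, an Iroquois factor, had 9.81 to 54.8 cpm in SN (median 13.3) and 0 to 0.211 cpm in PFC (median 0). It was highest in SN of mouse N4329, at 54.8 cpm, and its log2 fold change was 8.77 (SE 0.52), or 7.66 without mice N4329 and N4394. For En1 the log2 fold change was 9.23 (SE 0.43), or 8.49 without mice N4329 and N4394.

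The 10 lowest genes by the same rule were Eomes, Ankrd63, Tbr1, Slc17a7, Gm11549, Igfn1, Kcnh3, 9130024F11Rik, Kcnj4 and Hkdc1. Tbr1 had 127 to 164 cpm in PFC (median 150.4) and 0.486 to 5.77 cpm in SN (median 0.752). Its log2 fold change was -6.59 (SE 0.45), or -7.86 without mice N4329 and N4394. Mouse N4394 held the highest SN level of Tbr1, at 5.77 cpm. Slc17a7 had 1571 to 1815 cpm in PFC (median 1721) and 5.24 to 204 cpm in SN (median 9.35), and its log2 fold change was -6.02 (SE 1.00), or -7.80 without mice N4329 and N4394. No SN library reached the PFC range for these genes. Eomes had 1066 counts in PFC and 3 in SN, a scaled ratio of PFC to SN of 267 with an exact 95% counting interval of 91.0 to 1296. Of the 3 SN counts of Eomes 2 lay in mouse N4394, and its log2 fold change was -7.53 (SE 0.80), or -8.25 without mice N4329 and N4394. Ankrd63, an ankyrin-repeat gene, had 40.4 to 44.7 cpm in PFC (median 43.8) and 0.129 to 0.796 cpm in SN (median 0.341) and a log2 fold change of -6.78 (SE 0.25), or -7.37 without mice N4329 and N4394. Kcnh3 and Kcnj4 encode potassium channels, with log2 fold changes of -5.68, or -7.51 without mice N4329 and N4394, and -5.51, or -7.37 without mice N4329 and N4394, in that order. Igfn1 had 22.1 to 34.5 cpm in PFC (median 28.2) and 0 to 2.19 cpm in SN (median 0.207), and its log2 fold change was -5.97, or -8.09 without mice N4329 and N4394. Hkdc1, a hexokinase-domain gene, had 23.7 to 27.1 cpm in PFC (median 25.0) and 0.129 to 1.99 cpm in SN (median 0.401), and its log2 fold change was -5.42, or -6.26 without mice N4329 and N4394. The uncharacterised transcripts Gm11549 and 9130024F11Rik had medians of 50.0 and 16.8 cpm in PFC. In SN their medians were 0.258 and 0.0695 cpm, with the highest SN level of each in mouse N4394. Their log2 fold changes moved from -5.97 to -7.92 for Gm11549 and from -5.65 to -9.47 for 9130024F11Rik when both mice were left out.

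The genes of dopamine synthesis, storage and uptake that are reported here were all higher in SN. These 13 genes passed the filter on low counts and were called higher, 11 of them by at least 2-fold, and their median log2 fold change was 4.28 against 0.03 for all genes tested. Ddc, the decarboxylase that makes dopamine from L-DOPA, had 409 to 624 cpm in SN (median 479) and 4.33 to 7.47 cpm in PFC (median 5.67). Its log2 fold change was 6.41 (SE 0.12). Slc18a2, the vesicular monoamine transporter, had 399 to 646 cpm in SN (median 447) and 0.282 to 2.44 cpm in PFC (median 0.948). The log2 fold change of Slc18a2 was 8.47 (SE 0.35), and PFC libraries were near the lower end of detection. Slc10a4, a vesicular protein of monoamine and cholinergic neurons, had 74.7 to 114 cpm in SN (median 88.6) and 0.671 to 1.26 cpm in PFC (median 0.873), with a log2 fold change of 6.57 (SE 0.14). Aldh1a1, an aldehyde dehydrogenase of ventral-tier dopamine neurons, had 775 to 1091 cpm in SN (median 847) and 29.2 to 56.8 cpm in PFC (median 38.6) and a log2 fold change of 4.45 (SE 0.09). Reads of Aldh1a1 and its close relative Aldh1a7 may be exchanged between the genes, so both levels are uncertain. Per kilobase of exon, the median levels in SN were 344 RPKM for Th and 309 for Slc6a3. On the same scale SN had 229 for Ddc and 117 for Slc18a2. In PFC the values were 5.80 RPKM for Th, 2.71 for Ddc, 0.274 for Slc6a3 and 0.249 for Slc18a2.

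Since these genes were higher together, the 250 bases before their starts were searched for 6 short motifs on both strands, in RefSeq promoters of build GRCm38.p6, where 12 of the 13 genes matched, with 14 promoters. The motifs were chosen after seeing the data and after a wider look at such letters, so the matches are a description. The cAMP response element TGACGTCA lay in the promoter of Th, 45 bases before the start, and in 1.55% of all 32851 promoters. AAAGGTCA, the monomer element of Nr4a2, lay on the opposite strand of Ddc, 73 bases before the start, and in 1.34% of all promoters. TAATCC (bicoid type) was in Spr and in 6.25% of all promoters, and TATTTAC (forkhead) in Aldh1a1, in a second promoter of Ddc that is not shown and in 2.73%. The forkhead form TGTTTAC (3.17% of all promoters) and TAATTA of homeodomain factors (4.84%) were in none of the 14 promoters. The 120 bases before the start are shown for the genes with the rarest matches, Th (chr7:142899996-142900115, minus strand) and Ddc (chr11:11898145-11898264, minus strand), 5′ to 3′ with the match in capitals.
Th: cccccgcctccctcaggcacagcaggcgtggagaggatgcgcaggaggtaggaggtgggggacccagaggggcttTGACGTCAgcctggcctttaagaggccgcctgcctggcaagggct
Ddc: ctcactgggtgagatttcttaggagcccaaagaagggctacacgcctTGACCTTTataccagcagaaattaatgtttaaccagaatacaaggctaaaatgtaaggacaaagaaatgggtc
In Ddc the capitals read TGACCTTT, the reverse complement of AAAGGTCA.

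Transcription factors and markers of midbrain dopamine neurons were also higher in SN, with a few exceptions. All 19 passed the filter, 16 were called higher and 2 lower, and the median log2 fold change was 5.62. Pitx3, a homeobox factor needed for the dopamine neurons of SN, had 3.32 to 6.43 cpm in SN (median 4.05) and 0 to 0.125 cpm in PFC (median 0.0401) and a log2 fold change of 6.26 (SE 0.46). Chrna6, a nicotinic receptor subunit of dopamine neurons, had 158 to 253 cpm in SN (median 182) and 0.141 to 0.499 cpm in PFC (median 0.241), with a log2 fold change of 9.39 (SE 0.18). Both were separated fully between the regions. Nr4a2, which dopamine neurons need to form and which cortical deep-layer and claustral neurons also express, overlapped, with 22.9 to 52.9 cpm in SN (median 34.1) and 23.7 to 40.6 cpm in PFC (median 28.5). It was called higher at a log2 fold change of 0.30 (SE 0.14), in 3 of 5 mice, but not with mice N4329 and N4394 left out (0.11). Nor was it called without mouse N4329, N4394 or N4609 alone, with limma voom, or when the mouse block was dropped. Sox6, a factor of the ventral tier that cortical interneurons share, was not called, with 25.5 to 40.3 cpm in SN (median 32.0) and 27.4 to 34.8 cpm in PFC (median 30.3) and a log2 fold change of 0.05 (SE 0.10). Leaving out mouse N4609 gave a log2 fold change of -0.03 for Sox6. It was called higher, at 0.20, with the SN libraries of mice N4329 and N4394 left out and no mouse block. Calb1 (calbindin), a marker of the dorsal tier and of cortical neurons, was lower in SN, with 137 to 175 cpm in PFC (median 162) and 68.1 to 165 cpm in SN (median 101). The libraries overlapped, and its log2 fold change was -0.54 (SE 0.16). Kcnj6 (GIRK2), a potassium channel of dopamine neurons that cortex expresses as well, had 23.7 to 39.6 cpm in PFC (median 31.3) and 7.67 to 17.2 cpm in SN (median 12.6). It was lower in SN without overlap, at a log2 fold change of -1.44 (SE 0.18).

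Receptors for dopamine split by type. Of 5 genes, 3 passed the filter, and Drd3 and Drd4 stayed under 1 cpm in every library. Drd2, the autoreceptor of dopamine neurons, was higher in SN, with 36.9 to 68.9 cpm in SN (median 41.0) and 6.27 to 20.1 cpm in PFC (median 10.3) and a log2 fold change of 2.06 (SE 0.30). Drd1, a receptor of target neurons, was lower, with 21.8 to 45.6 cpm in PFC (median 32.1) and 2.46 to 5.58 cpm in SN (median 2.85) and a log2 fold change of -3.24 (SE 0.15). Drd5, its relative, was also lower, at -0.86 (SE 0.20). For all 3 the libraries did not overlap. In PFC, Drd2 was highest in mouse N4394, at 20.1 cpm against 6.27 to 11.6, and in SN in mouse N4609, at 68.9 against 36.9 to 46.8. PFC levels of Drd1 were also highest in mouse N4394, and lowest in mouse N4609. The other 13 genes of striatal projection neurons, summed, ranked these 2 PFC libraries alike, at 1000.4 and 498 cpm. The part of striatal tissue in the PFC levels of Drd1 and Drd2 was not tested.

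GDNF signals through the receptor tyrosine kinase Ret and a co-receptor, Gfra1, and supports midbrain dopamine neurons grown in culture. Gdnf itself was left out by the filter on low counts, with 0.278 to 0.502 cpm (median 0.425) in SN (43 counts in 6 libraries) and 0.211 to 0.931 cpm (median 0.441) in PFC (67 counts in 7). The groups overlapped, and the difference was not tested. Ret had 299 to 547 cpm in SN (median 317) and 4.83 to 9.10 cpm in PFC (median 6.31). Its libraries did not overlap, and its log2 fold change was 5.58 (SE 0.19), higher in 5 of 5 mice. Gfra1 had 82.9 to 109.8 cpm in SN (median 89.6) and 41.6 to 52.9 cpm in PFC (median 44.0) and a log2 fold change of 1.02 (SE 0.08). Of the co-receptors of related ligands, Gfra2 and Gfra4 went the other way, and Gfra3 did not pass the filter. Gfra2, which binds neurturin, had 70.3 to 108 cpm in PFC (median 94.7) and 18.6 to 33.8 cpm in SN (median 28.8) and a log2 fold change of -1.78 (SE 0.08). Gfra4, a co-receptor for persephin, had a log2 fold change of -1.08 (SE 0.08). Of the 17 genes of the GDNF family and the neurotrophins, 12 were tested, 5 were called higher and 5 lower, with a median of -0.18. Ntf3 (neurotrophin 3) was higher at 2.27 (SE 0.17), and so was its low-affinity receptor Ngfr at 1.55 (SE 0.30). Ntrk3, the receptor of neurotrophin 3, was lower, with 84.3 to 109 cpm in PFC (median 96.8) and 49.7 to 61.7 cpm in SN (median 58.7) and a log2 fold change of -0.83 (SE 0.08). Bdnf was not called, at 23.1 to 48.7 cpm in PFC (median 26.1) and 18.2 to 32.7 cpm in SN (median 24.8) and a log2 fold change of -0.13 (SE 0.14). For Bdnf the value was -0.40 and called lower without both mice, and it was 0.01 and not called without mouse N4612.

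Genes of telencephalic and cortical excitatory neurons were all lower in SN. The 18 genes were tested and called lower in full, without overlap of libraries, with a median log2 fold change of -3.89 (-4.82 without mice N4329 and N4394). Camk2a, a kinase of excitatory synapses, had 3305 to 4895 cpm in PFC (median 3679) and 80.2 to 494 cpm in SN (median 138) and a log2 fold change of -4.46 (SE 0.36), or -5.06 without mice N4329 and N4394. The highest SN level of Camk2a was in mouse N4394. Markers of cortical layers were lower in 14 of 20 genes and higher in 3, with a median of -0.86. Fezf2, a factor of deep-layer projection neurons, had 22.8 to 36.8 cpm in PFC (median 30.7) and 0.209 to 7.03 cpm in SN (median 0.424) and a log2 fold change of -4.34 (SE 0.65), or -6.46 without mice N4329 and N4394. Lamp5, a membrane protein of upper-layer cells and of an interneuron class, had 204 to 318 cpm in PFC (median 240.4) and 10.7 to 34.2 cpm in SN (median 15.3). Its log2 fold change was -3.61 (SE 0.22), and that of Cplx3, a complexin of the subplate, was -3.44 (SE 0.30), or -4.09 without mice N4329 and N4394. The layer genes that were higher in SN were Nxph4, Foxp2 and Etv1, which other neurons use as well. Nxph4, a neurexophilin, had 7.22 to 20.1 cpm in SN (median 13.04) and 3.52 to 5.61 cpm in PFC (median 4.94), Foxp2, a forkhead factor, had 31.0 to 59.4 cpm in SN (median 48.6) and 15.7 to 21.2 cpm in PFC (median 20.2), and Etv1, an ETS factor, had 50.6 to 91.7 cpm in SN (median 66.8) and 42.7 to 46.4 cpm in PFC (median 44.5). Their log2 fold changes were 1.58, 1.27 and 0.52.

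**Figure D3:**
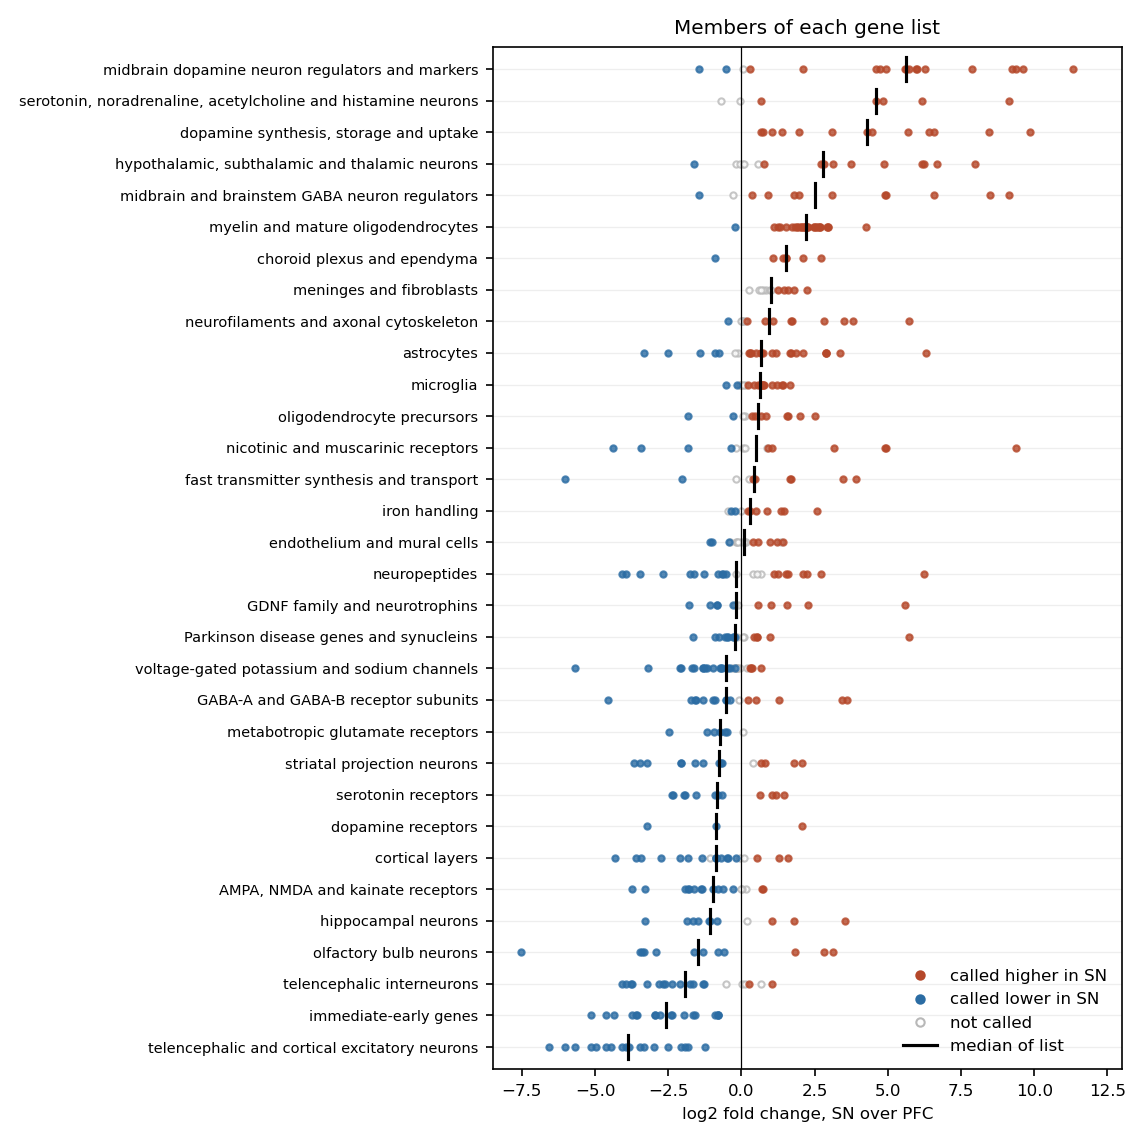
Log2 fold change of SN over PFC for each tested member of 32 gene lists, ordered by list median (black bars); red points were called higher, blue lower, open grey not called. Medians run from -3.89 for excitatory neuron genes to 5.62 for dopamine neuron regulators.

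Inhibitory neurons were for the most part marked by different genes in each region. Of 20 genes of telencephalic interneurons, 14 were called lower in SN and 2 higher, with a median of -1.93. Pvalb (parvalbumin), an interneuron gene that is not in this list, had more in SN. Its raw counts were 1209 to 3702 in SN libraries and 526 to 1192 in PFC libraries. Npy, a peptide of interneurons, had 61.3 to 92.2 cpm in PFC (median 77.5) and 1.23 to 13.4 cpm in SN (median 2.89) and a log2 fold change of -4.08 (SE 0.46), or -5.07 without mice N4329 and N4394. Vip had 41.1 to 64.7 cpm in PFC (median 56.6) and 0.902 to 11.3 cpm in SN (median 2.44) and a log2 fold change of -3.94 (SE 0.48), or -5.01 without mice N4329 and N4394. The highest SN level of Vip was in mouse N4394, at 11.3 cpm. Dlx6os1, a non-coding transcript antisense to Dlx6, was lower at -3.76 (SE 0.34), or -4.39 without mice N4329 and N4394. Its reads may be mixed with those of Dlx6 if strand was not used in counting, which was not checked. Prox1 and Adarb2, which lie in caudal interneurons and in other neurons, were higher, at 1.05 (SE 0.12) and 0.26 (SE 0.11). Adarb2 was not called without mice N4329 and N4394, without mouse N4394 or without mouse N4609. For regulators of midbrain and brainstem GABA neurons, 12 of 15 genes passed the filter, 10 were called higher and 1 lower, with a median of 2.53. Tal1, a factor that sets GABA identity in the midbrain, had 10.5 to 22.4 cpm in SN (median 16.4) and 0.873 to 2.11 cpm in PFC (median 1.54) and a log2 fold change of 3.09 (SE 0.14). Sox14, a factor of thalamic and midbrain GABA neurons, had 270 counts in SN and 1 in PFC, a scaled ratio of 359.6 (exact 95% interval 64.0 to 14255). Lhx1, a LIM factor, was higher with a log2 fold change of 6.59 (SE 0.50), or 5.97 without mice N4329 and N4394. Zfpm1, a partner of GATA factors, was the gene lower in SN, at -1.44 (SE 0.10).

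The 2 enzymes of GABA synthesis overlapped between the regions. Gad1 was not called, with 285 to 703 cpm in SN (median 611) and 463 to 637 cpm in PFC (median 522) and a log2 fold change of -0.17 (SE 0.22). It depended on the libraries that stood apart: without mice N4329 and N4394 its log2 fold change was 0.30 and it was called higher. Gad2, the other synthesising enzyme, had 164 to 409 cpm in SN (median 340.2) and 204 to 252 cpm in PFC (median 219) and was not called at 0.24 (SE 0.19). Without mice N4329 and N4394 Gad2 was called higher at 0.63. It was also called higher without mouse N4329 or N4394 alone, in the likelihood ratio test, and when the mouse block was dropped over all 13 libraries. Slc32a1, the vesicular GABA transporter, was called higher at 0.41 (SE 0.19), in 3 of 5 mice, with overlapping libraries, and was not called without mouse N4529, N4609 or N4612. With mice N4329 and N4394 left out, Slc32a1 was called higher at 0.78. Slc6a11, a GABA transporter of astrocytes, had 605 to 971 cpm in SN (median 735) and 169 to 345 cpm in PFC (median 218), without overlap, at a log2 fold change of 1.68 (SE 0.19). The glutamate transporters of vesicles exchanged places. Slc17a6, which subcortical neurons use, had 119 to 281 cpm in SN (median 203) and 18.7 to 27.3 cpm in PFC (median 20.5) and a log2 fold change of 3.46 (SE 0.14). Per kilobase of exon, SN had a median of 47.0 RPKM of Slc17a6 and 3.18 of Slc17a7, while PFC had 4.76 and 585. Slc17a8, a transporter of scattered neuron types, was lower at -2.03 (SE 0.30). Glra1, a glycine receptor subunit, was higher at 3.91 (SE 0.37). Of the 11 genes of fast transmitter synthesis and transport, 10 were tested, 6 were called higher and 2 lower, with a median of 0.43 (8 higher and 2 lower without mice N4329 and N4394).

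Markers of neurons that lie next to SN differed between mice. Of 13 genes of serotonin, noradrenaline, acetylcholine and histamine neurons, 7 were tested, 5 were called higher and none lower, with a median of 4.59. Without mice N4329 and N4394 6 were tested and 4 called higher, with a median of 2.67. Their summed level was 30.4 to 147 cpm (median 110.4) in SN and 6.37 to 11.5 cpm (median 10.1) in PFC. The largest part in SN was Tph2 in mice N4545 and N4329, Hdc in mice N4394 and N4609, and Gata3 in the others. Tph2, which makes serotonin in the raphe, had 4.85 to 84.8 cpm in SN (median 19.3) and 0.479 to 1.16 cpm in PFC (median 0.590). SN levels of Tph2 were 84.8, 58.8 and 26.7 cpm in mice N4545, N4329 and N4609 and 4.85 to 11.9 in the others. Slc6a4, the serotonin transporter, followed, with 2.59 to 35.7 cpm in SN (median 8.77) and 0 to 0.352 cpm in PFC (median 0.0451) and a log2 fold change of 6.18 (SE 0.43), or 5.23 without mice N4329 and N4394. Hdc, which makes histamine, had 0.835 to 83.3 cpm in SN (median 12.4) and 0.312 to 1.06 cpm in PFC (median 0.642), with overlap, and a log2 fold change of 4.59 (SE 0.84). SN levels of Hdc were 83.3, 56.8 and 21.3 cpm in mice N4394, N4609 and N4329 and 0.835 to 3.54 in the others, and without mice N4329 and N4394 it did not pass the filter and was not tested. Chat, of cholinergic neurons, was not called, with 0.494 to 1.81 cpm in SN (median 1.18) and 0.931 to 2.68 cpm in PFC (median 1.71) and a log2 fold change of -0.70 (SE 0.39), or -0.09 without mice N4329 and N4394. Chat was called lower without mouse N4609 or N4612, in the likelihood ratio test and with limma voom. Of 21 genes of hypothalamic, subthalamic and thalamic neurons, 16 were tested, 10 were called higher and 1 lower, with a median of 2.77. Foxb1, a factor of the mammillary region, had 2.71 to 10.8 cpm in SN (median 6.17) and 0 to 0.120 cpm in PFC (median 0) and a log2 fold change of 6.67 (SE 0.55), or 5.73 without mice N4329 and N4394. Tcf7l2, a factor of the thalamus, had 12.3 to 87.6 cpm in SN (median 31.5) and 3.59 to 4.71 cpm in PFC (median 4.15). It was highest in mouse N4612, and its log2 fold change was 2.83 (SE 0.40), or 3.60 without mice N4329 and N4394. Sim1, of the hypothalamus, had 371 counts in SN and 1 in PFC, a scaled ratio of 494 (exact 95% interval 88.1 to 19568). The PFC count of Sim1 lay in mouse N4394, and its log2 fold change was 7.96 (SE 0.43), or 8.74 without mice N4329 and N4394. Pmch, a peptide of the lateral hypothalamus, had 2.86 to 52.2 cpm in SN (median 4.83) and 0.0802 to 0.291 cpm in PFC (median 0.192), with 52.2 cpm in mouse N4529 and 25.7 in mouse N4609. Trh, the thyrotropin-releasing hormone, was lower in SN at -1.64 (SE 0.53), in 4 of 5 mice, with 1.63 to 15.5 cpm in PFC (median 6.05) and 1.32 to 2.99 cpm in SN (median 1.79). Its lowest and highest PFC levels lay in mice N4394 and N4329, as for the genes of olfactory bulb neurons, and mouse N4394 had more in SN than in PFC.

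Markers of other forebrain areas were lower in SN for the most part. Of 12 genes of hippocampal neurons, 11 were tested, 7 were called lower and 3 higher, with a median of -1.08. Mpped1, a phosphodiesterase-domain gene, had 323 to 375 cpm in PFC (median 352) and 22.4 to 49.2 cpm in SN (median 36.2) and a log2 fold change of -3.31 (SE 0.14). Wfs1, a membrane protein of the endoplasmic reticulum, was lower at -1.88 (SE 0.12), and Ociad2 at -1.64 (SE 0.07). C1ql2, a synaptic C1q-like protein, had 10.2 to 24.2 cpm in SN (median 14.9) and 0.406 to 2.18 cpm in PFC (median 1.43) and was higher at 3.53 (SE 0.26), and Cabp7, a calcium-binding protein, was higher at 1.79 (SE 0.20). Of 15 genes of striatal projection neurons, 10 were called lower and 4 higher, with a median of -0.76. Their summed level was 252 to 399.6 cpm (median 336) in SN and 526 to 1066 cpm (median 731) in PFC. PFC of mouse N4394 held the highest sum, at 1066 cpm against 526 to 827 in the others. Adora2a, the adenosine receptor of the indirect pathway, had 10.8 to 31.0 cpm in PFC (median 17.6) and 0.975 to 2.26 cpm in SN (median 1.15) and a log2 fold change of -3.67 (SE 0.17). Its highest PFC level was in mouse N4394 as well, at 31.0 cpm. Pdyn, which encodes dynorphin, was lower at -3.47 (SE 0.15). Six3, a homeobox factor, was higher at 1.78 (SE 0.33), and Ido1, a tryptophan-degrading enzyme, at 0.80 (SE 0.29). Ido1 was not called without mouse N4529. All 12 genes of olfactory bulb neurons were tested, 9 were called lower and 3 higher, with a median of -1.47. Cdhr1 was lower at -3.32 (SE 0.49) and Doc2g at -2.93 (SE 0.50), with the spread between PFC libraries given above. Meis2 and Sp8, transcription factors of olfactory and other interneurons, were lower at -3.40 (SE 0.18) and -3.47 (SE 0.56). Calb2 (calretinin) was higher, with 201 to 326 cpm in SN (median 288) and 15.9 to 92.7 cpm in PFC (median 44.4) and a log2 fold change of 2.81 (SE 0.33). Barhl2, a homeobox gene of the diencephalon, was higher at 3.14 (SE 0.64), and Olfm4 at 1.83 (SE 0.24).

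Myelin genes were higher in SN. All 29 passed the filter, 28 were called higher, each by at least 2-fold, and 1 lower, with a median log2 fold change of 2.195. Mbp had 7475 to 14584 cpm in SN (median 12438) and 2188 to 3409 cpm in PFC (median 2541) and a log2 fold change of 2.10 (SE 0.23). The libraries of the regions did not overlap for Mbp. Klk6, a protease of oligodendrocytes, had 56.7 to 119.9 cpm in SN (median 89.7) and 3.95 to 5.98 cpm in PFC (median 4.89) and the highest log2 fold change of the list, 4.25 (SE 0.14). Ermn (ermin) and Anln (anillin) followed at 2.96 (SE 0.17) and 2.95 (SE 0.14). Nfasc, a protein of the node of Ranvier that neurons make as well, overlapped, with 349 to 405 cpm in PFC (median 382) and 269 to 419.9 cpm in SN (median 335), and was called lower at -0.21 (SE 0.10). It was not called without mice N4329 and N4394, nor without mouse N4329, N4394, N4529 or N4612, nor when the mouse block was dropped over the same 10 libraries. The summed level of the list was 16079 to 29234 cpm (median 24484) in SN and 4695 to 6713 cpm (median 5203) in PFC. Of 12 genes of oligodendrocyte precursors, 8 were called higher and 2 lower, with a median of 0.57. Enpp6, of newly forming oligodendrocytes, had 65.7 to 122 cpm in SN (median 86.1) and 11.8 to 16.7 cpm in PFC (median 14.6) and a log2 fold change of 2.52 (SE 0.14). Bcas1, a gene of the same stage, was higher at 2.01 (SE 0.21), and C1ql1 at 1.59 (SE 0.18). Tnr (tenascin R), of the perineuronal matrix, was lower, with 67.0 to 109 cpm in PFC (median 74.6) and 17.0 to 38.8 cpm in SN (median 22.5) and a log2 fold change of -1.83 (SE 0.17). Cspg4 (NG2), of precursors and pericytes, was lower at -0.30 (SE 0.08).

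Astrocyte genes were more often called higher than lower in SN. All 25 were tested, 18 were called higher and 5 lower, with a median of 0.68. Agt, angiotensinogen, had 327 to 553 cpm in SN (median 374) and 3.17 to 7.42 cpm in PFC (median 5.57). Its log2 fold change was 6.31 (SE 0.21), higher in 5 of 5 mice. Gfap, the intermediate filament of astrocytes, had 742 to 1841 cpm in SN (median 1144) and 99.1 to 192 cpm in PFC (median 142) and a log2 fold change of 2.89 (SE 0.16). Aqp4, the water channel of their endfeet, had 427 to 1337 cpm in SN (median 864) and 105 to 244 cpm in PFC (median 211) and a log2 fold change of 2.09 (SE 0.11). Sparc, a matrix protein, was higher at 3.37 (SE 0.09), and Itih3 at 2.90 (SE 0.18). Slc1a2, the main glutamate transporter, was lower in SN, with 2360.1 to 3938 cpm in PFC (median 3394) and 1212 to 1987 cpm in SN (median 1799) and a log2 fold change of -0.91 (SE 0.08). The lowest SN level of Slc1a2 was in mouse N4329, and the libraries did not overlap. Lhx2, a LIM factor of the telencephalon, had 35.9 to 56.0 cpm in PFC (median 47.3) and 1.28 to 11.5 cpm in SN (median 3.21) and a log2 fold change of -3.33 (SE 0.43), or -4.25 without mice N4329 and N4394. Mfge8, a secreted protein that tags cells for uptake, was lower at -1.42 (SE 0.11), and Cyp4f15 at -2.51 (SE 0.23).

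Microglial genes were higher in SN for the most part, by small amounts. Of 22 genes, 21 were tested, 14 were called higher and 2 lower, with a median of 0.63. Only 4 of the 21 did not overlap between the regions, against 49.9% of all genes tested. Without mice N4329 and N4394 the counts were 11 higher and 1 lower, with a median of 0.31. Cx3cr1, the fractalkine receptor of microglia, was not called, with 49.4 to 72.9 cpm in SN (median 56.1) and 46.1 to 70.7 cpm in PFC (median 60.9) and a log2 fold change of -0.06 (SE 0.09). Without both mice the log2 fold change of Cx3cr1 was 0.05. Csf1r, the receptor that microglia need to survive, had 96.4 to 139 cpm in SN (median 121) and 109.8 to 142 cpm in PFC (median 127). It was called lower at -0.16 (SE 0.07), but not without both mice (-0.06). Nor was Csf1r called without mouse N4329, N4394 or N4612, with limma voom, in the likelihood ratio test, or when the mouse block was dropped. Fcrls was lower at -0.52 (SE 0.10), but was not called when the mouse block was dropped over all 13 libraries (-0.32). H2-Aa and Cd74, of antigen presentation by MHC class II, were higher at 1.65 (SE 0.69), or 0.21 without mice N4329 and N4394, and 1.41 (SE 0.67), or 0.09 without mice N4329 and N4394. Neither was called without both mice, and neither was called without mouse N4329 or N4394 alone. Cd74 was also not called without mouse N4529 or with DESeq2. SN of mouse N4329 had 40.4 cpm of H2-Aa and that of mouse N4394 50.5, against 3.27 to 8.05 in the others. Cd163, of macrophages at brain borders, was higher at 1.39 (SE 0.38), or 0.61 without mice N4329 and N4394.

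Smooth muscle and meningeal genes followed the SN libraries that stood apart, while endothelial genes were split. Slco1c1, Flt1, Cldn5 and Ly6c1 did not follow them, but Pecam1, Ptprb, Vwf and Abcb1a did. Pecam1 had 644 and 437 raw counts in SN of mice N4329 and N4394, against 179 to 322 in the other SN libraries. Of 17 genes of endothelium and mural cells, 5 were called higher and 3 lower, with a median of 0.10. Without mice N4329 and N4394, 3 were higher and 8 lower, with a median of -0.04. Tagln and Myh11, of smooth muscle, were called higher at 1.43 and 1.23. Both were at -0.02 and -0.04 without both mice and were then not called. Neither was called without mouse N4329, N4394 or N4612, with limma voom or with DESeq2. Acta2 was not called at 1.36 (SE 0.67), or -0.03 without mice N4329 and N4394. It was called higher without mouse N4529 or N4609, in the likelihood ratio test, with no filter on low counts, and when the mouse block was dropped (2.53 over 13 libraries). Vtn (vitronectin, a pericyte product) had 101 to 328 cpm in SN (median 136) and 67.9 to 97.8 cpm in PFC (median 75.3), without overlap, at a log2 fold change of 0.98 (SE 0.27). Slco1c1, a thyroid hormone transporter of endothelium, and Flt1, a VEGF receptor, were lower without overlap. Slco1c1 had 73.7 to 96.4 cpm in PFC (median 82.0) and 36.2 to 48.8 cpm in SN (median 41.4) and a log2 fold change of -1.09 (SE 0.10), and Flt1 one of -0.995 (SE 0.12). Pdgfrb, of pericytes, was lower at -0.43 (SE 0.17), and not called without mouse N4529, N4609 or N4612. Of 12 genes of meninges and fibroblasts, 5 were called higher and none lower, with a median of 1.00. Without mice N4329 and N4394 the counts were 2 higher and 4 lower, with a median of -0.13. Dcn (decorin) was higher at 2.23 (SE 0.45), or 1.37 without mice N4329 and N4394, Col3a1 at 1.80 (SE 0.62), or 0.51 without mice N4329 and N4394, and Lum at 1.58 (SE 0.53), or 0.44 without mice N4329 and N4394. Col3a1 and Lum were not called without both mice. Ptgds was higher at 1.45 (SE 0.50), or 0.45 without mice N4329 and N4394. Of 13 genes of choroid plexus and ependyma, 7 were tested, 6 were called higher and 1 lower, with a median of 1.52. Ttr (transthyretin) had 1.26 to 224 cpm in SN (median 11.7) and 0.120 to 43.8 cpm in PFC (median 1.31). Its SN levels were 224 and 208 cpm in mice N4545 and N4394 and 1.26 to 13.6 in the others, and mouse N4394 was also highest in PFC. Ttr was called at a log2 fold change of 2.70 (SE 0.54), but not when the mouse block was dropped over the same 10 libraries. Folr1, a folate receptor of the plexus, was higher at 2.11 (SE 0.68) and Sostdc1 at 1.54 (SE 0.38), while Rsph1, of cilia, was lower at -0.91 (SE 0.19).

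Glutamate receptor genes were mostly lower in SN. Of 18 genes of AMPA, NMDA and kainate receptors, 17 were tested, 12 were called lower and 2 higher, with a median of -0.98. Grin2b, an NMDA receptor subunit, had 22.0 to 50.7 cpm in PFC (median 28.9) and 1.74 to 3.90 cpm in SN (median 2.40) and a log2 fold change of -3.73 (SE 0.24). Grin2a was lower at -3.29 (SE 0.19), and Gria3, an AMPA receptor subunit, at -1.92 (SE 0.08). Grin2d, a subunit of subcortical neurons, had 13.7 to 22.8 cpm in SN (median 18.1) and 6.22 to 12.5 cpm in PFC (median 10.2) and was higher at 0.71 (SE 0.10), and Grik1, a kainate receptor subunit, at 0.73 (SE 0.08). Libraries of the regions did not overlap for Grin2b and Grin2d. Of 8 metabotropic receptors, 7 were tested, 6 were called lower and none higher, with a median of -0.72. Grm2, a presynaptic receptor, had 58.9 to 90.5 cpm in PFC (median 73.2) and 5.76 to 25.0 cpm in SN (median 10.9) and a log2 fold change of -2.48 (SE 0.25), Grm5 one of -1.19 (SE 0.08) and Grm7 one of -0.93 (SE 0.06). GABA receptor genes were mixed: of 17, 16 were tested, 10 were called lower and 5 higher, with a median of -0.53. Gabrd, a subunit of receptors outside synapses, had 73.7 to 90.2 cpm in PFC (median 82.7) and 1.00 to 6.97 cpm in SN (median 3.00) and a log2 fold change of -4.55 (SE 0.35). Gabrg3 was lower at -1.73 (SE 0.22) and Gabbr2, of the GABA-B receptor, at -1.58 (SE 0.12). Gabrq, a theta subunit of monoamine and hypothalamic neurons, had 14.5 to 28.0 cpm in SN (median 18.9) and 1.04 to 2.85 cpm in PFC (median 1.60) and a log2 fold change of 3.60 (SE 0.22). Gabre was higher at 3.42 (SE 0.36), and Gabrg1, of glia and subcortical neurons, at 1.29 (SE 0.07).

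Acetylcholine receptor genes differed in both directions. Of 18 genes, 14 were tested, 6 were called higher and 4 lower, with a median of 0.49. Over all genes tested, 39.1% were called higher and 37.2% lower. Chrnb3, which joins Chrna6 in receptors on dopamine neurons, had 48.3 to 89.3 cpm in SN (median 61.4) and 1.31 to 3.31 cpm in PFC (median 1.76) and a log2 fold change of 4.93 (SE 0.26). Chrm5, the muscarinic receptor of dopamine neurons, had 3.69 to 7.08 cpm in SN (median 5.59) and 0.0958 to 0.227 cpm in PFC (median 0.160) and a log2 fold change of 4.89 (SE 0.23). Chrm1, the main muscarinic receptor of cortex, had 221 to 262 cpm in PFC (median 245) and 4.30 to 31.7 cpm in SN (median 5.91) and a log2 fold change of -4.39 (SE 0.44), or -5.38 without mice N4329 and N4394. Chrm4 was lower at -3.42 (SE 0.22), and Chrm3 at -1.84 (SE 0.10). Among 14 serotonin receptor genes, 12 were tested and called, 8 lower and 4 higher, with a median of -0.85. Htr2c had 86.5 to 215 cpm in SN (median 154) and 42.0 to 75.9 cpm in PFC (median 60.6) and was higher at 1.46 (SE 0.14), Htr4 at 1.18 (SE 0.18) and Htr7 at 1.05 (SE 0.15). Htr2a, of cortical pyramidal neurons, had 21.6 to 37.3 cpm in PFC (median 32.3) and 4.11 to 9.17 cpm in SN (median 5.72) and was lower at -2.33 (SE 0.23). Htr3a, the ion channel receptor of interneurons, was lower at -2.37 (SE 0.42), or -3.45 without mice N4329 and N4394, and Htr5b at -1.98 (SE 0.53).

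Peptides, channels and cytoskeleton gave further contrasts. Of 25 neuropeptide genes, 23 were tested, 8 were called higher and 11 lower, with a median of -0.18. Gal (galanin) was higher at 2.71 (SE 0.67), and Nts (neurotensin), with 5.82 to 31.9 cpm in SN (median 14.6) and 2.11 to 6.23 cpm in PFC (median 3.49), at 2.24 (SE 0.19). All 29 genes of voltage-gated potassium and sodium channels were tested, 17 were called lower and 4 higher, with a median of -0.52. Kcnq3, of the M current, had 28.4 to 41.4 cpm in PFC (median 31.0) and 6.26 to 11.4 cpm in SN (median 7.43) and a log2 fold change of -2.12 (SE 0.10). Kcnq5, its relative, was lower at -3.18 (SE 0.18). Kcnd3, an A-type channel, had 148 to 218 cpm in SN (median 169) and 93.1 to 131 cpm in PFC (median 113) and was higher at 0.67 (SE 0.08). Hcn2 was higher at 0.35 (SE 0.08), and Scn1a at 0.32 (SE 0.10), with overlap of libraries for both. A further list of 14 genes held neurofilaments, axonal cytoskeleton and other genes such as Sncg and Spp1. Of these 14, 9 were called higher and 1 lower, with a median of 0.93. Nefh, the heavy neurofilament chain of large axons, had 132 to 341 cpm in SN (median 246) and 62.4 to 79.8 cpm in PFC (median 65.3) and a log2 fold change of 1.73 (SE 0.21). Prph (peripherin) was higher at 3.81 (SE 0.37), and Spp1 (osteopontin) at 3.50 (SE 0.25). Mapt (tau) was lower without overlap, at -0.44 (SE 0.07).

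Immediate-early genes, which neurons switch on with activity, were all lower in SN. The 18 genes were tested and called lower, 14 of them by at least 2-fold, with a median of -2.59 (-3.24 without mice N4329 and N4394). Egr1 had 152 to 373 cpm in PFC (median 241) and 11.6 to 40.8 cpm in SN (median 16.3) and a log2 fold change of -3.60 (SE 0.24). Egr3 had 94.9 to 178 cpm in PFC (median 118) and 0.416 to 12.5 cpm in SN (median 1.69), with a log2 fold change of -5.13 (SE 0.56), or -6.64 without mice N4329 and N4394. Nptx2, a pentraxin at excitatory synapses, was lower at -4.62 (SE 0.23), and Egr2 at -4.36 (SE 0.70), or -5.94 without mice N4329 and N4394. Arc had 80.0 to 260.3 cpm in PFC (median 116) and 26.6 to 41.1 cpm in SN (median 29.7) and a log2 fold change of -1.98 (SE 0.24). Fos overlapped between the regions, with 9.89 to 61.8 cpm in PFC (median 22.0) and 6.26 to 24.4 cpm in SN (median 12.1), and was called lower at -0.80 (SE 0.20), in 5 of 5 mice. The highest SN level of Egr2 was in mouse N4394, at 1.13 cpm against 0 to 0.348.

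A list of synucleins and genes linked to Parkinson disease, in which dopamine neurons of SN are lost, showed no common direction. All 17 were tested, 5 were called higher and 9 lower, with a median of -0.21. Sncg (gamma-synuclein) had 112 to 150.4 cpm in SN (median 121) and 1.69 to 2.78 cpm in PFC (median 2.08) and a log2 fold change of 5.74 (SE 0.12), higher in 5 of 5 mice. Fbxo7, a ubiquitin ligase subunit, was higher at 0.99 (SE 0.10), and Vps35, of the retromer, at 0.54 (SE 0.08). Lrrk2, a kinase, had 50.2 to 71.2 cpm in PFC (median 64.7) and 17.7 to 23.8 cpm in SN (median 19.8) and was lower at -1.66 (SE 0.13). Vps13c, a lipid transfer protein, was lower at -0.92 (SE 0.13). Gpnmb, a glycoprotein of lysosomes, overlapped, with 1.68 to 5.41 cpm in PFC (median 3.85) and 1.60 to 2.58 cpm in SN (median 2.04), and was called lower at -0.77 (SE 0.23), in 4 of 5 mice. Of 12 genes of iron handling, 11 were tested, 7 were called higher and 2 lower, with a median of 0.28. Trf (transferrin), which oligodendrocytes make, had 982 to 1798 cpm in SN (median 1664) and 197 to 314 cpm in PFC (median 232) and a log2 fold change of 2.58 (SE 0.19). Fth1, the ferritin heavy chain, had 2656 to 4098 cpm in SN (median 3506) and 1183 to 1494 cpm in PFC (median 1324) and a log2 fold change of 1.33 (SE 0.14), with reads from near-identical gene copies that may be missed or shared. Cp (ceruloplasmin) was higher at 1.46 (SE 0.51), or 0.40 without mice N4329 and N4394. Slc11a2, an iron importer, was lower at -0.35 (SE 0.06), and Slc40a1, the exporter, at -0.22 (SE 0.10). Slc40a1 was not called without both mice, without mouse N4394, N4529 or N4609, with limma voom or DESeq2, in the likelihood ratio test, or when the mouse block was dropped over all 13 libraries.

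The same regions were compared in mice that share no library with those above. In HET mice of the young cross, 10860 genes (74.0%) were called, and in HOM mice 10026 (68.9%). Of 9839 genes called in both WT and HET mice, 9834 had the same direction, and of 9426 called in both WT and HOM mice, 9425 did. Among genes tested in both sets, those called in both made up 88.9% of the WT calls and 91.7% of the HET calls. For HOM the shares, on the same basis, were 85.5% and 94.7%. In the AAV-Cre WT mice 11011 (74.4%) were called. There 8961 genes were called in both sets, and 8391 of them (93.6%) had the same direction. Among genes tested in both sets, the 8961 made up 81.1% of the young and 82.8% of the older calls. Across 14475 genes tested in both sets, the log2 fold changes had r = 0.907, where genes are not independent replicates. All 20 genes of the 10 highest and 10 lowest were called in the same direction in HET and AAV-Cre WT mice, and so were the 19 of them tested in HOM mice. Th had a log2 fold change of 5.89 in AAV-Cre WT mice, 5.05 in HET and 6.36 in HOM. For Neurod6 the values were -3.48, -4.06 and -3.90.

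Whether the region difference itself differed between AAV-Cre WT and young Nestin-Cre WT mice was tested as an interaction. It was called for 6676 of 15083 genes (44.3%), with 3398 above 0 (more SN relative to PFC in AAV-Cre mice) and 3278 below, and 662 of them by at least 2-fold. Without the SN libraries of mice N4329 and N4394 it was called for 6683 of 14972 genes. Of 22 microglial genes, 21 were called and all were below 0, with a median of -1.01. Without the SN libraries of mice N4329 and N4394, 17 of 22 were called, again all below 0. For meninges and fibroblasts 11 of 12 were called below 0, and 0 of 12 without those libraries. Of 29 myelin genes, 22 were called, 1 of them above 0, with a median of -0.59. Nfasc was the gene above 0, at 0.64. Of 25 astrocyte genes, 17 were called, all below 0. For voltage-gated potassium and sodium channels 21 of 29 were called, and for AMPA, NMDA and kainate receptors 15 of 18, all above 0 in both lists. For metabotropic glutamate receptors all 7 were called, 6 of them above 0. Grin2b had a log2 fold change of -3.73 in young and -1.33 in AAV-Cre WT mice, an interaction of 2.38 with adjusted p = 1.59e-06 (edgeR quasi-likelihood test, Benjamini-Hochberg) over 13 young and 14 AAV-Cre libraries. Excitatory neuron genes had 2 of 18 called with all libraries. Without the SN libraries of mice N4329 and N4394, 13 of 18 were called, all above 0. Of 13 genes of dopamine synthesis, storage and uptake, 3 were called, all below 0. Th and Slc6a3 were not among them, at 0.13 and 0.07. Ret was called at 0.60, but not without the SN libraries of mice N4329 and N4394 (0.50).

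**Figure D4:**
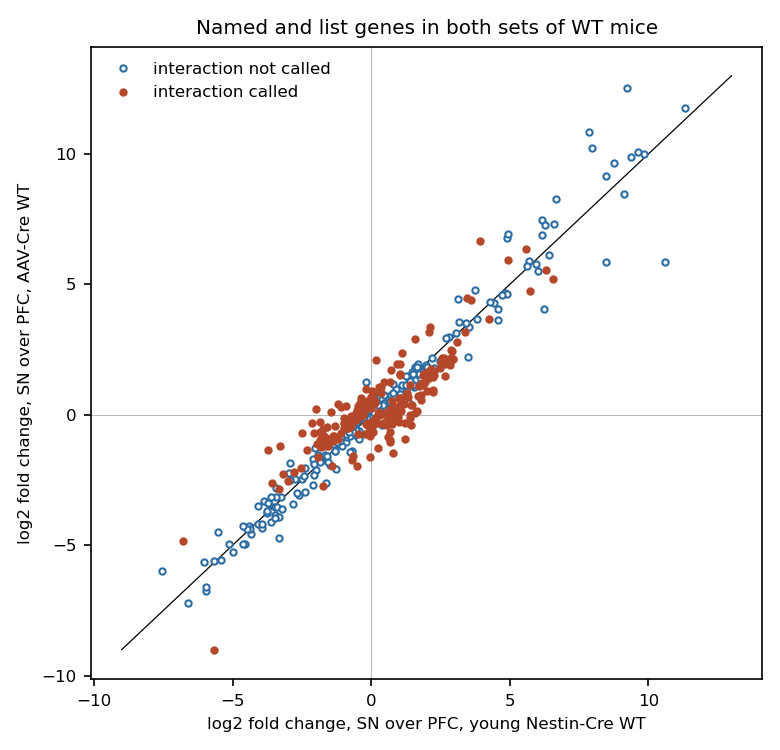
Log2 fold change of SN over PFC in AAV-Cre WT mice (y axis) against young Nestin-Cre WT mice (x axis) for 454 named and list genes tested in both; filled red points are the 222 with an interaction called, open blue points the rest, and the line marks equal values. Slc6a3 and Th, at 10.01 and 5.89 in AAV-Cre mice, lie near the line.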

How the data were processed

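The authors deposited raw counts per gene, made with bcl2fastq 2.20.0.422, STAR 2.5.2b and featureCounts 1.5.1 on mm10 for 24412 genes (6 without a symbol); every value column was used or set aside by label, and 0 stayed unused. For each fit, counts were filtered at 1 cpm in at least 3 of its libraries and scaled by TMM; levels in cpm were scaled by TMM over the 13 young WT libraries. SN was compared with PFC in R 4.3.3 with edgeR 4.0.16 (quasi-likelihood F test with trended dispersion, two-sided), mouse as a block, in the 10 libraries of the 5 mice with both regions, with Benjamini-Hochberg correction over all genes tested and a threshold of 0.1. The 3 unpaired libraries entered levels, overlap, the fits without a mouse block and limma 3.58.1 voom. DESeq2 1.42.0 was a further alternative. The pipeline was tested on simulated data. Pairing by mouse number was checked: 5 of 5 SN libraries correlated best with the PFC library of the same mouse (median r across genes 0.207, other mice -0.0131), and the correlation estimated by voom was 0.196. Differences between libraries of a region exceeded counting error (median chi-square per degree of freedom 31.2 in SN and 13.1 in PFC). Mouse N4575 is labelled WT in PFC and HOM elsewhere. The interaction used all libraries of both WT sets without a mouse block. Named genes were the 3 markers, the 10 highest and 10 lowest called genes with at least 5 cpm and no overlap, the 3 highest and 3 lowest called members of 32 lists (490 genes, 449 tested), and 31 other genes chosen after their values were seen. The members and lists were chosen with earlier results of these data known. RPKM used the deposited gene lengths. Some genes are not reported here and are in none of these sets, though counts over all genes tested include them.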

Additional observations from a re-analysis of the deposited data

Results flagged for a closer look

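Among 363 groups of libraries of named genes, 35 had a highest or lowest library far from the rest (Dixon's test at the 95% level), 21 in SN and 14 in PFC. Chance gives about 1 in 20 groups. For Gata3, Sim1, Sox14 and En1 in PFC the library was the only one above 0, which the test always picks out, so these 4 say nothing of distance; without them 31 of 359 groups remain. The SN library of mouse N4394 accounted for 10 of the 35 and the PFC library of the same mouse for 7, of which 2 are among these 4. All values are in cpm.

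In SN, mouse N4329 stood apart for Irx2 (highest, 54.8), Cabp7 (highest, 29.0) and Slc1a2 (lowest, 1212). In SN, mouse N4394 stood apart for Tbr1 (highest, 5.77), Gm11549 (highest, 3.25), Igfn1 (highest, 2.19), 9130024F11Rik (highest, 1.73), Hkdc1 (highest, 1.99), Drd1 (highest, 5.58), Vip (highest, 11.3), Egr2 (highest, 1.13), Camk2a (highest, 494) and Egr1 (highest, 40.8). In SN, mouse N4529 stood apart for Sp8 (highest, 2.37). In SN, mouse N4545 stood apart for Sostdc1 (highest, 4.09). In SN, mouse N4609 stood apart for Drd2 (highest, 68.9), Grin2a (highest, 2.67) and Kcnq3 (highest, 11.4). In SN, mouse N4612 stood apart for Shox2 (highest, 27.5), C1ql1 (lowest, 15.8) and Tcf7l2 (highest, 87.6).

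In PFC, mouse N4329 stood apart for Vip (lowest, 41.1), Slc6a11 (highest, 345) and Myh11 (highest, 21.3). In PFC, mouse N4394 stood apart for Chrna6 (highest, 0.499), Gata3 (highest, 0.0454), Drd2 (highest, 20.1), Sim1 (highest, 0.0454), Ido1 (highest, 2.13), Ttr (highest, 43.8) and Folr1 (highest, 1.13). In PFC, mouse N4396 stood apart for Sox14 (highest, 0.0623). In PFC, mouse N4609 stood apart for Irx2 (highest, 0.211) and Camk2a (highest, 4895). In PFC, mouse N4612 stood apart for En1 (highest, 0.160).

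The SN to PFC difference was tested against that of the AAV-Cre WT mice, and 79 of 183 named genes in that fit were called (adjusted p under 0.1, edgeR's quasi-likelihood interaction test, Benjamini-Hochberg). Values are the log2 fold change in AAV-Cre WT minus that in young Nestin-Cre WT mice. Age, injection and source of Cre cannot be told apart, and 44.3% of all genes were called in this test.

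The difference was above 0 by at least 1 for Ankrd63 (2.81), Glra1 (2.52), Grin2b (2.38), Htr5b (1.93), Grin2a (1.93), Grm2 (1.91), Kcnq3 (1.72), Nxph4 (1.54), Tnr (1.46), Kcnj6 (1.45), Gabrg3 (1.25), Slc17a6 (1.21), Vps13c (1.18), Htr2a (1.06), Gabbr2 (1.04), Gabrq (1.03) and Kcnq5 (1.01). It was above 0 by less for Chrm3 (0.94), Grin2d (0.89), Gfra2 (0.88), Chrnb3 (0.84), Nr4a2 (0.80), Flt1 (0.72), Calb1 (0.66), Nfasc (0.64), Ret (0.60), Adarb2 (0.59), Scn1a (0.58), Grm7 (0.57), Kcnd3 (0.55), Mpped1 (0.46), Lrrk2 (0.44), Htr7 (0.44), Prox1 (0.39), Mapt (0.37), Hcn2 (0.37), Slc11a2 (0.35), Gria3 (0.34), Grm5 (0.31), Slco1c1 (0.26) and Ntrk3 (0.24). It was below 0 by at least 1 for 9130024F11Rik (-3.45), Ido1 (-2.21), H2-Aa (-1.97), Cd74 (-1.90), Ptgds (-1.87), Tagln (-1.86), Lum (-1.71), Col3a1 (-1.69), Slc10a4 (-1.53), Fcrls (-1.51), Dcn (-1.44), Cd163 (-1.42), Cp (-1.40), Nts (-1.35), Vtn (-1.25), Chat (-1.21), Tcf7l2 (-1.21), Six3 (-1.20) and Sncg (-1.12). It was below 0 by less for Ermn (-0.91), Anln (-0.88), Aqp4 (-0.80), Gfap (-0.76), Agt (-0.72), Enpp6 (-0.69), Fth1 (-0.68), Trf (-0.64), Tal1 (-0.59), Klk6 (-0.59), Mfge8 (-0.57), Itih3 (-0.55), Bcas1 (-0.54), Mbp (-0.49), Gabrg1 (-0.46), Fbxo7 (-0.36), Cx3cr1 (-0.35), Csf1r (-0.33) and Sparc (-0.25).

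With the SN libraries of mice N4329 and N4394 left out, 66 of the 79 were still called. The 13 no longer called, with the value then, were 9130024F11Rik (-0.18), Ret (0.50), H2-Aa (-0.22), Cd74 (-0.51), Cd163 (-0.59), Tagln (0.67), Dcn (-0.58), Col3a1 (-0.24), Lum (-0.49), Chrnb3 (0.71), Htr7 (0.25), Cp (-0.38) and Ptgds (-0.79). None of the 12 genes of meninges and fibroblasts was called then.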

How the results depend on the processing

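The number of genes called was 11115 and ran from 10245 to 11767 over the alternatives: no mouse block, a random block, DESeq2, a likelihood ratio test, other scaling and filters, a threshold of 0.05, mouse N4575 included, each mouse left out in turn, and mice N4329 and N4394 left out (the latter chosen after seeing the data). Genes called higher ran from 5136 to 6074, lower from 5033 to 5750, at least 2-fold higher from 1466 to 2123, and at least 2-fold lower from 1629 to 2101. Interactions ran from 5552 to 6839 over 7 alternatives: a threshold of 0.05, a mouse block, DESeq2, its size factors, no filter, mouse N4575 included, and the SN libraries of mice N4329 and N4394 left out. Each count stayed within 1.5 times the count reported.

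Of 182 named genes tested, 159 kept their direction and their side of the threshold in every alternative run, and 16 of the 175 called were not called in some alternative. Hdc, Folr1 and Htr5b did not pass the filter without mice N4329 and N4394. Of 2905 values, 2797 kept both, 69 lost the call and 22 gained it. Log2 fold changes turned their sign as follows, and the cause was not tested. Without mice N4329 and N4394 they were -0.0203 for Tagln, -0.0383 for Myh11, 0.30 for Gad1, 0.0480 for Cx3cr1 and -0.0250 for Acta2. With the SN libraries of these mice left out and no mouse block they were 0.0369 for Csf1r, -0.0454 for Tagln, -0.16 for Myh11, 0.31 for Gad1, 0.0885 for Cx3cr1 and -0.0363 for Acta2. When the mouse block was dropped over all 13 libraries, Gad1 was at 0.00683, and with mouse N4575 included Cx3cr1 was at 0.0253. With each mouse left out in turn, Sox6 ran from -0.0317 (without N4609) to 0.126 (without N4394), and Gad1 from -0.319 (without N4529) to 0.0557 (without N4329). Bdnf ran from -0.246 (without N4394) to 0.00726 (without N4612), and Cx3cr1 from -0.132 (without N4612) to 0.0198 (without N4394).

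The 5 mice with both regions limit the test, genes of low counts such as Gdnf were left out by the filter at 13769516 to 25882810 counts per library, and tissue pieces mix cell types. Region and position of the dissection cannot be told apart. Reads of near-identical gene copies were not separated.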

Other observations

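Some genes differed between mice by at least 8-fold in both regions, with the highest level at 10 cpm or more: 2610507I01Rik, Atp6v0c, BC002163, Cwc22, Gdpd3, Tmem181c-ps and Ttr, 7 in all, chosen after their values were seen. Folds were taken after 0.5 cpm was added to each level. Cwc22, a splicing factor, had 18.2 cpm in PFC of mouse N4329 and 16.6 in its SN, while mouse N4394 had 279 and 245. SN of mouse N4545 was also low for Cwc22, at 16.03 cpm. Atp6v0c, a subunit of the vacuolar proton pump, had 0.318 cpm in PFC and 3.05 in SN of mouse N4394, against 51.8 and 73.0 in mouse N4612. Gdpd3, a phosphodiesterase of lysophospholipids, had 10.5 and 16.6 cpm in mouse N4329 and 0.211 and 0.111 in mouse N4609. Tmem181c-ps had 42.4 and 15.6 cpm in mouse N4329 and 0.775 and 0.390 in mouse N4609, and like BC002163 it has copies that may share reads.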
